A study of Mus musculus with 8 samples.

Results

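The 10 genes that carry the signal from Toll-like receptors into the macrophage were followed across 8 arrays of mouse bone marrow-derived macrophages. They comprise 3 adaptors (Myd88, Ticam1, Ticam2), the 4 members of the IRAK kinase family (Irak1, Irak2, Irak3, Irak4), the ubiquitin ligase Traf6 and 2 MAP3 kinases (Map3k7, Map3k8). The genes were chosen by function, with earlier results of these data known. Their rows were found by gene number: each probe set of the deposited table carries the Entrez number of its gene. Among 24570 genes, 10 of 10 members were found. Irak4 had no symbol in the platform annotation and was named through its gene number in RefSeq.

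The cells were grown for 7 days from the marrow of wild-type mice of 8 to 10 weeks, in medium with L cell supernatant as the source of M-CSF, which macrophage precursors need to mature. They were then given hepcidin at 10 µg/ml or PBS, and lysed after 1 h. Hepcidin is a peptide hormone that limits iron export from cells by binding ferroportin. There were 4 arrays for each group, numbered 1 to 4 in the sample titles. The labels name neither the strain nor what a number stands for, so p-values speak of the spread among these samples alone, and that spread may be technical.

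Toll-like receptors recognise microbial molecules such as lipopolysaccharide. On binding, most of them recruit the adaptor MyD88, which assembles the IRAK kinases. These act on TRAF6, whose ubiquitin chains activate TAK1 (the product of Map3k7), and TAK1 in turn switches on NF-kB and MAP kinases. A second route runs through the adaptor TRIF (Ticam1), which TLR4 reaches by way of TRAM (Ticam2), and leads to type I interferon. TPL2 (Map3k8) is released on stimulation and drives the ERK pathway in macrophages. IRAK-M (Irak3) is known as a brake on the MyD88 route.

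Both arrays numbered 1 stood apart from the rest. On the first principal component, which held 36.4% of the variance, the PBS array lay at -34.9 and the hepcidin array at -26.3, and the other 6 arrays at 6.89 to 13.3. Both arrays numbered 4 stood apart on the second component, which held 17.3%. There the PBS array lay at 20.9 and the hepcidin array at 19.6, and the other 6 arrays at -13.7 to -0.59. The 9 macrophage markers measured had mean log2 values between 7.40 (Cx3cr1) and 13.1 (Cd68), and 9 of 9 lay above 5.75, the 90th percentile of 32 markers of lymphocytes and endothelium that served as a measure of background. On the arrays numbered 1 the mean of the macrophage markers was lower than on the others, with log2 differences of -0.63 in the PBS group and -0.52 in the hepcidin group. The mean of 12 neutrophil and precursor markers, 5 of them above that bound, was lower there, with differences of -1.15 and -1.26. No marker was at 0, and the 8 fibroblast and 8 dendritic cell markers stayed below the bound.

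After 1 h of hepcidin the mRNA of Map3k8 was 1.28-fold higher, with no overlap between the groups, while the groups overlapped for the other 9 genes. The log2 differences of Irak2 and Ticam1 were 0.21 and 0.15, and those of the other 7 lay between -0.12 and 0.01. No member passed an adjusted p of 0.05 in limma over all genes, and neither did any other gene: 0% of 24570 were called, the smallest adjusted p was 0.0784, and 696 genes (2.83%) had an unadjusted p under 0.05. Among the members, 1 of 10 had such a p, Map3k8. Over all genes, 1.32% had such a p and were higher with hepcidin, and 1.51% were lower, a direction in which no member had one. The median log2 difference, hepcidin minus PBS, was -0.01 over the members and 0.00 over all genes, and 4 of 10 members were higher against 50.5% of all genes. The median over the members was -0.03, 0.03, -0.01 and 0.08 in pairs 1 to 4. Here a pair is the hepcidin and the PBS array with the same number.

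**Figure D1:**
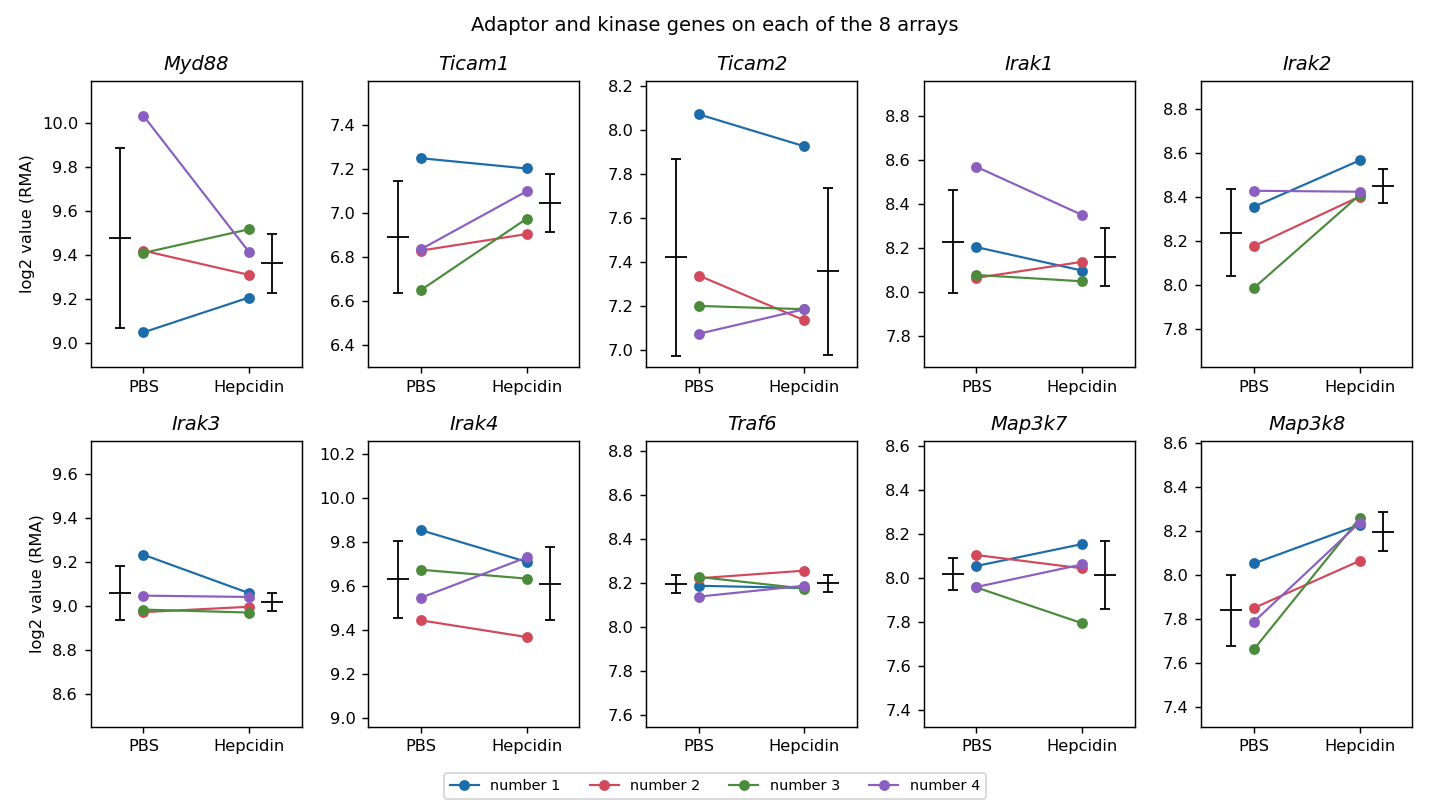
Log2 value (RMA, vertical axis, each panel spanning the same distance) of the 10 genes on the PBS and hepcidin arrays. Points joined by a line are arrays with the same number, and bars beside them give the mean ± SD (n = 4). Map3k8 was higher with hepcidin in 4 of 4 pairs, and Ticam2 was high on both arrays numbered 1.

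Map3k8 (Entrez gene 26410) encodes TPL2, the MAP3 kinase that sits in a complex with the NF-kB precursor p105 until a receptor signal frees it. Its log2 values with PBS were 8.05, 7.85, 7.66 and 7.79 on numbers 1 to 4, and with hepcidin 8.23, 8.06, 8.26 and 8.24. The hepcidin arrays thus lay above the PBS arrays, but only just: the lowest hepcidin value, number 2 at 8.06, was next to the highest PBS value, number 1 at 8.05. Groups apart in this direction were found for 0.838% of all genes, and in the other for 1.03%, none of them a member. The mean was 8.20 ± 0.09 for hepcidin and 7.84 ± 0.16 for PBS (SD, n = 4), a log2 difference of 0.36 ± 0.10 (SE) with a 95% interval from 0.14 to 0.58. In limma the unadjusted p was 0.00432, the 58th smallest over all genes, and the adjusted p was 1.00. The pairs differed by 0.18, 0.21, 0.59 and 0.45. A difference of the same sign in 4 of 4 pairs, higher with hepcidin, was seen for 5.69% of all genes. Among the members it was seen for Map3k8 alone, and 0 of 10 were lower in 4 of 4 pairs, against 5.95% of all genes. Without both arrays numbered 1 the difference was 0.42 (unadjusted p 0.00234 in limma, adjusted p 1.00). Without both numbered 3 it was 0.28, and without both numbered 4 it was 0.33 (unadjusted p 0.0371 and 0.0307 in limma). Against a minimum fold of 1.2 the unadjusted p in limma was 0.176. In bulk RNA, a change in the share of cells that make a transcript and a change in transcript per cell cannot be told apart. The macrophage marker mean was 10.6 in both groups, and the hepcidin and PBS means were 5.53 and 5.59 for the neutrophil and precursor markers. Their part in the difference was not tested.

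Map3k7 (26409), which encodes TAK1, the kinase that activates both the IKK complex and the MAP kinase cascades, showed no such difference. Its PBS values were 8.05, 8.10, 7.96 and 7.96 and its hepcidin values 8.15, 8.04, 7.79 and 8.06. The groups overlapped over most of their range, and pairs 1 and 4 were higher with hepcidin while pairs 2 and 3 were lower. The log2 difference was -0.01 ± 0.09 (SE), with an interval from -0.21 to 0.20, which holds fold changes from 0.863 to 1.15. Its sign turned when each array was centred on its median, at 0.01.

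Traf6 (22034), the ubiquitin ligase between the IRAK kinases and TAK1, had the narrowest spread of the 10 genes. It stood at 8.19, 8.22, 8.23 and 8.14 with PBS and at 8.18, 8.25, 8.17 and 8.19 with hepcidin, so that all 8 arrays lay within 0.12. The log2 difference was 0.01 ± 0.07 (SE), with an interval from -0.15 to 0.16, or 0.902-fold to 1.12-fold. Its sign turned after renewed quantile normalization and after cyclic loess, at -0.01 in both.

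Of the IRAK family, Irak2 (108960) had the largest difference. IRAK2 is a kinase-like protein that sustains the MyD88 signal after the first wave. Its PBS values were 8.35, 8.18, 7.99 and 8.43 on numbers 1 to 4, and its hepcidin values were 8.57, 8.40, 8.41 and 8.42. The hepcidin arrays lay close together, and the groups overlapped because the PBS array numbered 4 was as high as they were. The pairs differed by 0.21, 0.22, 0.42 and -0.00. With means of 8.45 ± 0.08 and 8.24 ± 0.20 (SD, n = 4) the log2 difference was 0.21 ± 0.11 (SE), 1.16-fold, with an interval from -0.02 to 0.45 (unadjusted p 0.0708 in limma, adjusted p 1.00). With the replicate number as a block, the unadjusted p in limma was 0.0402 and the adjusted p 0.990, and 2 of 10 members, Irak2 and Map3k8, then had an unadjusted p under 0.05 against 4.90% of all genes. In that fit 1 gene (0.00407%) passed over all genes, and it was no member. Without both arrays numbered 1 as well as with the block, the unadjusted p of Irak2 was 0.0813. The difference also depended on single arrays in the fit without the block. Without the PBS array numbered 3 it was 0.13, and without both numbered 3 it was 0.14 (unadjusted p 0.206 and 0.223 in limma). Without the PBS array numbered 4 it was 0.28 (unadjusted p 0.0282 in limma).

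Irak1 (16179) and Irak4 (266632) encode the active kinases at the top of the cascade, IRAK4 acting on IRAK1. Irak1 stood at 8.20, 8.06, 8.08 and 8.57 with PBS and at 8.10, 8.14, 8.05 and 8.35 with hepcidin. It was highest on number 4 in both groups, and the groups overlapped. The log2 difference of -0.07 ± 0.12 (SE) had an interval from -0.35 to 0.21. Without the PBS array numbered 4 the difference was 0.04, and without both arrays of that number it was -0.02. Irak4 stood at 9.85, 9.44, 9.67 and 9.55 with PBS and at 9.71, 9.37, 9.63 and 9.73 with hepcidin. It was lowest on number 2 in both groups. The log2 difference was -0.02 ± 0.11 (SE), with an interval from -0.28 to 0.24, and it was 0.02 without both arrays numbered 1.

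Irak3 (73914), the gene of the inhibitory family member IRAK-M, is largely restricted to monocytes and macrophages. Its PBS values were 9.23, 8.97, 8.98 and 9.05 and its hepcidin values 9.06, 8.99, 8.97 and 9.04. Apart from the PBS array numbered 1 the arrays lay within a narrow band, and pairs 2 to 4 differed by 0.02, -0.01 and -0.01. The log2 difference was -0.04 ± 0.08 (SE), with an interval from -0.23 to 0.14, and 0.00 without both arrays numbered 1.

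**Figure D2:**
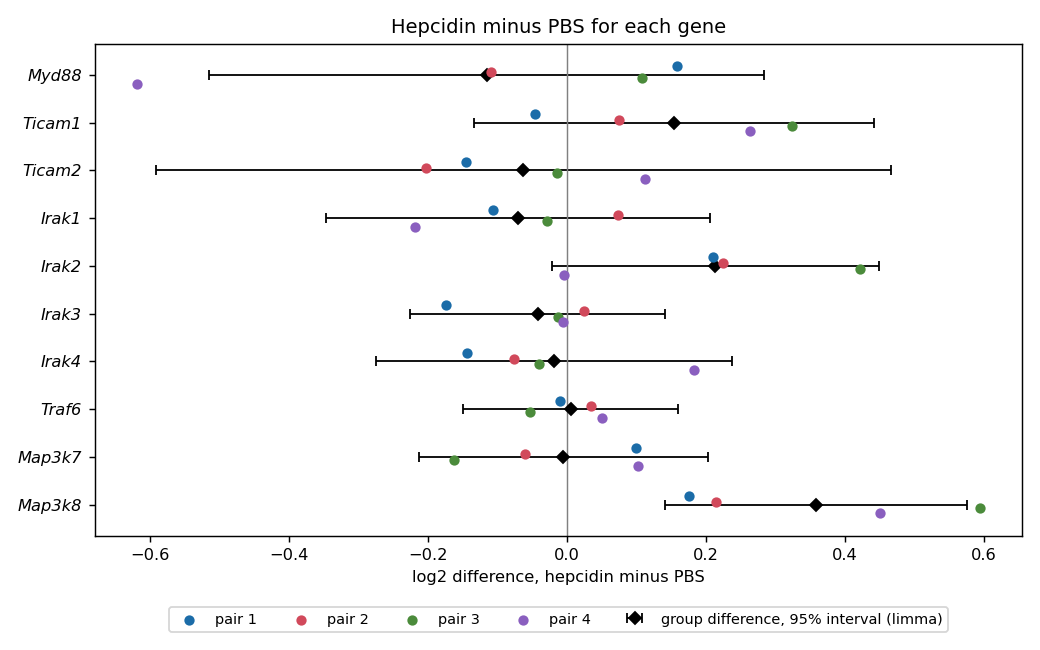
Log2 difference, hepcidin minus PBS (horizontal axis), for each of the 10 genes. Coloured points are the 4 pairs of equally numbered arrays, and diamonds with bars give the group difference and its 95% interval from limma, unadjusted and without a block. The interval of Map3k8, 0.14 to 0.58, lies above 0, and those of the other 9 genes include 0. With the replicate number as a block, not drawn here, the interval of Irak2 was 0.01 to 0.41.

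Among the adaptors, Myd88 (17874) encodes the protein that links nearly all Toll-like receptors and the IL-1 receptor to the IRAK kinases. Its log2 values with PBS were 9.05, 9.42, 9.41 and 10.0, and with hepcidin 9.21, 9.31, 9.52 and 9.41. The PBS group spread over 0.98 and enclosed the hepcidin group, which spread over 0.31. Pair 4 differed by -0.62, and pairs 1 to 3 by 0.16, -0.11 and 0.11. The log2 difference was -0.12 ± 0.18 (SE), with an interval from -0.52 to 0.28, and without the PBS array numbered 4 it was 0.07.

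Ticam1 (106759) encodes TRIF, the adaptor of TLR3 and of the interferon arm of TLR4. It stood at 7.25, 6.83, 6.65 and 6.84 with PBS and at 7.20, 6.90, 6.97 and 7.10 with hepcidin. The PBS array numbered 1 was the highest of the 8, and the other 3 PBS arrays lay below the 4 hepcidin arrays. The pairs differed by -0.05, 0.07, 0.32 and 0.26, and the log2 difference was 0.15 ± 0.13 (SE), 1.11-fold, with an interval from -0.13 to 0.44 (unadjusted p 0.261 in limma, adjusted p 1.00). With the replicate number as a block and all 8 arrays, the interval was -0.05 to 0.35 (unadjusted p 0.112 in limma). The value depended on the arrays numbered 1 and 3. Without the PBS array numbered 3 it was 0.07, and without both numbered 3 it was 0.10 (unadjusted p 0.583 and 0.525 in limma). Without the PBS array numbered 1 it was 0.27 (unadjusted p 0.0224 in limma, adjusted p 1.00), and without the hepcidin array numbered 1 it was 0.10. Without both arrays numbered 1 it was 0.22 (unadjusted p 0.0511 without the block and 0.0406 with it, where the adjusted p in limma was 0.909).

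Ticam2 (225471), the gene of the bridging adaptor TRAM, differed by number far more than by treatment. On number 1 the PBS array was at 8.07 and the hepcidin array at 7.93, and values lay between 7.07 and 7.34 on the other 6 arrays. The excess on number 1 over the rest of its group was 0.87 with PBS and 0.76 with hepcidin, so the same separation was present in both groups. Between hepcidin and PBS the log2 difference was -0.06 ± 0.24 (SE), with an interval from -0.59 to 0.47. It was -0.04 ± 0.09 (SE) without both arrays numbered 1. With the replicate number as a block and all 8 arrays, the interval was -0.25 to 0.12. The lower neutrophil and macrophage marker means on number 1, given above, moved with this separation, and their part in it was not tested.

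The share of each gene's spread that followed the number or the treatment was taken from sums of squares over the 8 arrays. For Ticam2, 96.4% lay between numbers and 0.76% between treatments. For Map3k8, 71.4% lay between treatments and 12.2% between numbers, and for Irak2 40.3% and 39.5%. In the other 7 members the share between numbers ran from 62.8% (Myd88) to 85.8% (Irak1), and that between treatments from 0.063% (Map3k7) to 16.2% (Ticam1). The median between numbers was 69.5% for the members and 55.8% for all genes, and between treatments 4.46% and 5.10%.

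**Figure D3:**
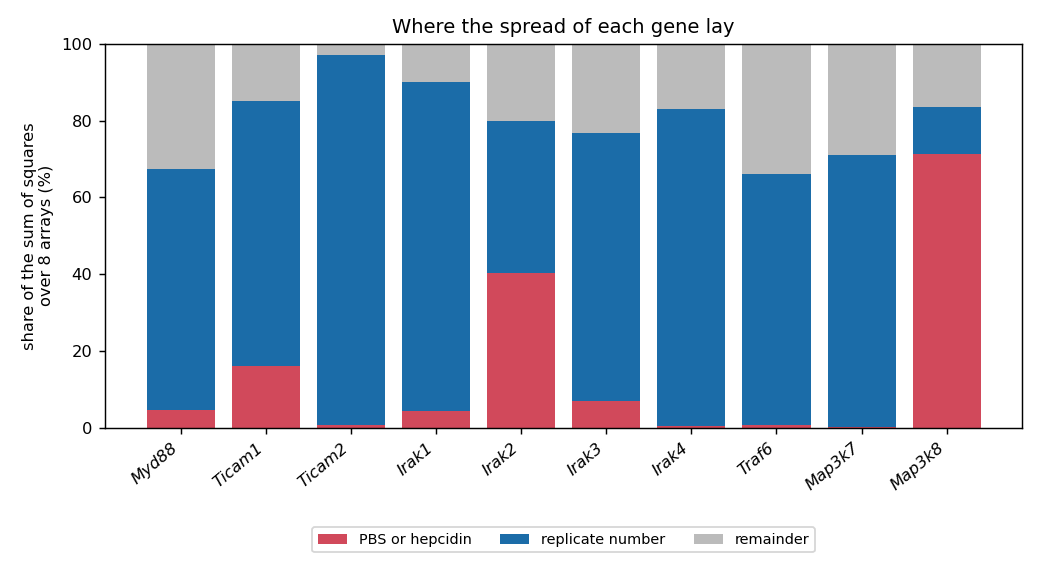
Share of the sum of squares over the 8 arrays (vertical axis, percent) that lay between PBS and hepcidin, between replicate numbers, and in the remainder, for each of the 10 genes. Map3k8 had most of its spread between treatments (71.4%) and Ticam2 nearly all of it between numbers (96.4%).

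With PBS alone, the 10 genes had mean log2 values between 6.89 ± 0.25 (Ticam1) and 9.63 ± 0.18 (Irak4) (SD, n = 4), all above the bound of 5.75 for background. Ticam1 and Ticam2, at 6.89 and 7.42, lay below the brightest of the background markers, at 7.51. Probe sets differ in how strongly they bind, so these values do not order the genes by transcript abundance.

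Genes whose values followed Map3k8 most closely over the 8 arrays were sought among the 9569 other genes whose mean level reached 6, by the mean absolute difference of values centred on each gene's own mean. The nearest were Birc3, which encodes the ubiquitin ligase cIAP2, at 0.07, the stress-response gene Gadd45b at 0.08, and Irak2 at 0.08, where the median over all these genes was 0.22. Map3k8's own mean deviation was 0.19. The log2 differences of Birc3 and Gadd45b between hepcidin and PBS were 0.34 and 0.35. This ranking uses the same arrays as the comparison and is a description only. The genes nearest to Irak2 were Mmachc (0.06), Stx8 (0.07) and Coq9 (0.07), where the median was 0.18, and those nearest to Irak3 were Rab7 (0.02), Shkbp1 (0.03) and Bod1l (0.03), where it was 0.14. Irak3 itself deviated from its mean by 0.06, so that any gene with little spread lies near it.

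**Figure D4:**
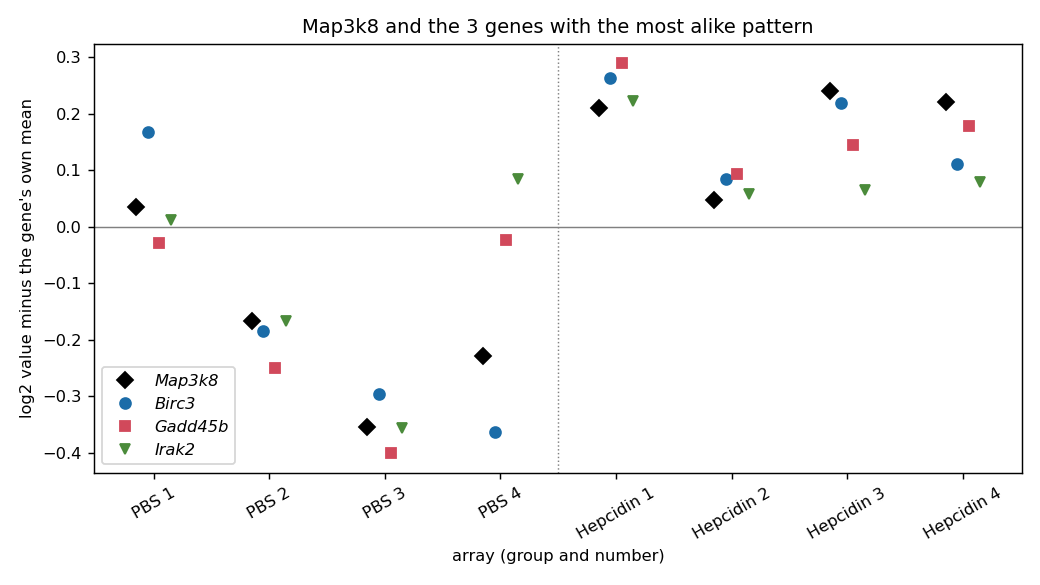
Log2 value minus the gene's own mean (vertical axis) on each of the 8 arrays (horizontal axis) for Map3k8 and the 3 genes with the most alike pattern. On the hepcidin arrays the 4 genes lay above their own means. On the PBS array numbered 1 this also held for Birc3, Map3k8 and Irak2, and on the PBS array numbered 4 for Irak2.

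The other genes of the pathway were read from 4 lists with 44 genes, all of them measured. None passed over all genes in limma (0%). With hepcidin 30 were higher and 14 lower, where 50.5% of all genes were higher, and the median log2 difference was 0.04. An unadjusted p under 0.05 was found for 2 of 44, both higher with hepcidin, against 2.83% of all genes in either direction. These were Traf3 and Ikbke. Traf3 (22031), the ubiquitin ligase that TRIF uses to reach the kinase TBK1, had a mean of 7.40 ± 0.12 in the hepcidin group and of 7.17 ± 0.08 in the PBS group (SD, n = 4). It was higher by 0.30, 0.22, 0.23 and 0.19 in pairs 1 to 4 (unadjusted p 0.0210 in limma, adjusted p 1.00). Its groups did not overlap, which in this direction held for 0.838% of all genes. Ikbke (56489), the gene of the TBK1-related kinase IKKε, stood at 8.56 ± 0.13 and 8.28 ± 0.16 (SD, n = 4) and was higher by 0.50, 0.28, 0.33 and 0.03, with overlap (unadjusted p 0.0212 in limma, adjusted p 1.00).

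In each list the 2 genes with the smallest unadjusted p are given here. Among 10 further adaptors, co-receptors and brakes at the receptor, 7 were higher. Sigirr, an inhibitory receptor of the IL-1 receptor family, differed by -0.13 ± 0.09 at a level of 4.97 with PBS, within the background range. Tollip, an inhibitor that binds IRAK1, differed by 0.12 ± 0.09 (SE). Among 12 partners of TAK1 and ubiquitin enzymes, 5 were higher. Besides Traf3, the conjugating enzyme gene Ube2n differed by 0.30 ± 0.23 (SE), with pairs of both signs. Among 12 MAP kinase genes downstream, 10 were higher, and none of the 12 had an unadjusted p under 0.05 in limma. The ERK activator Map2k2 and the p38 activator Map2k3 differed by 0.17 ± 0.10 and 0.18 ± 0.11 (SE). Among 10 genes of the TPL2 and TBK1 arms, 8 were higher. Nfkb1, which encodes the p105 precursor that holds TPL2, differed by 0.16 ± 0.09 (SE).

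Promoter windows of RefSeq (GRCm38.p6, 250 bases before to 50 after a start site) were matched for 8 of 10 members, with 10 windows in all. Map3k8 and Ticam2 had no window in the set used and were not searched. The members' windows were searched on both strands for the 10-letter kappa-B consensus of NF-kB, which 1480 of 32851 windows (4.51%) hold. Of the members' windows 1 held a match, that of Map3k7, whose mRNA differed by -0.01. No match was found in the window of Irak2, which says only that this consensus is not within it. The 200 bases before the start site of these 2 genes are shown 5′ to 3′ on the plus strand with the match in capitals. They are from chr6:113638267-113638466 for Irak2 and chr4:31963907-31964106 for Map3k7.
Irak2: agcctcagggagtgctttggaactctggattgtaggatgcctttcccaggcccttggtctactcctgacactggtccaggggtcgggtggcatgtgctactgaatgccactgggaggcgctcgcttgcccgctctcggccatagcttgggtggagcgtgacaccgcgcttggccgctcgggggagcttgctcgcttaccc
Map3k7: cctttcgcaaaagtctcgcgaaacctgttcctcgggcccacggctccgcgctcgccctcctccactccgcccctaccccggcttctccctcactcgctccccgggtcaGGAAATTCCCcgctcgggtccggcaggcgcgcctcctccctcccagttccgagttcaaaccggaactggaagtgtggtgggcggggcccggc
The match in Map3k7 spans bases 92 to 83 before the start site and is read on the minus strand.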

How the data were processed

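Total RNA was hybridised to Affymetrix whole-transcript arrays, 4 per group, per the labels' protocols. Expression was deposited as log2 values, from 1.73 to 13.6, which the authors computed by RMA (affy 1.36.1), per the submitters' processing notes. No further normalization was applied. RMA compresses ratios of dim genes. The genome build and probe set definition are not given in the sources used. Of 24973 probe sets, 24015 had a platform symbol and 559 more were named by gene number through RefSeq. For 4 symbols with several probe sets only the brightest was kept. The 24570 genes were tested with no filter for dim ones.

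Hepcidin was compared with PBS in limma 3.58.1 (R 4.3.3; lmFit, eBayes), with Benjamini-Hochberg adjustment over all genes and a threshold of 0.05. The fit was checked on simulated data. Across genes, correlations of deviations from the group mean ran from 0.345 to 0.551 for equally numbered arrays and from -0.356 to 0.125 for the others, so the numbers pair the arrays. The pairing rests on the titles and this check. The fit reported leaves the number out, so its SE and intervals hold the spread between numbers as well. With the number as a block, the median SE over the members was 0.080, against 0.110 without it. The 95% interval was then 0.15 to 0.57 for Map3k8 and 0.01 to 0.41 for Irak2. It was -0.42 to 0.19 for Myd88, -0.25 to 0.11 for Irak1 and -0.21 to 0.13 for Irak3. For Irak4 it was -0.21 to 0.17, for Traf6 -0.15 to 0.16 and for Map3k7 -0.19 to 0.18.

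Members and gene lists were chosen with earlier results of these data known. The named genes were the 10 members, the 2 genes with the smallest unadjusted p in each pathway list and any past the threshold, and the 3 genes most alike to Map3k8, Irak2 and Irak3. Alternatives were the number as a block, other normalizations, filters and variance models, a minimum fold, and leaving out arrays. The number of arrays limits the precision.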

Additional observations from a re-analysis of the deposited data

Results flagged for a closer look

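In 4 of 20 sets of 4 arrays (10 genes in 2 groups), 1 array lay apart from the other 3 by more than Dixon's 95% bound on the gap over the range. Chance flags about 1 set in 20, and the genes share their arrays. Ticam2 was at 7.93 on the hepcidin array numbered 1, where the next highest was 7.19. Irak2 was at 8.57 on the same array, with the next at 8.42. Traf6 was at 8.25 on the hepcidin array numbered 2, with the next at 8.19. Map3k8 was at 8.06 on that array, the lowest of its group, where the next lowest was 8.23.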

How the results depend on the processing

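No member passed over all genes in limma under any of 25 alternatives, and the smallest adjusted p was 0.372, for Map3k8 with the replicate block among genes whose mean level reached 6. Of 250 values of single members, 226 kept their sign. Outside the left-out arrays, the sign turned for Map3k7 after median centring (0.0103), for Traf6 after quantile normalization and cyclic loess (-0.00698 and -0.00782), and for Irak3 (0.00169) and Irak4 (0.0223) with the replicate block and without both arrays numbered 1. The cause was not tested. With single arrays or both arrays of a number left out, the log2 difference ran from 0.28 to 0.43 for Map3k8, 0.13 to 0.29 for Irak2, 0.07 to 0.27 for Ticam1, -0.26 to 0.0692 for Myd88, -0.25 to 0.15 for Ticam2, -0.13 to 0.0432 for Irak1, -0.0713 to 0.0156 for Irak3, -0.0866 to 0.0616 for Irak4, -0.0137 to 0.0247 for Traf6 and -0.0521 to 0.0678 for Map3k7. The median over the members ran from -0.0510 to 0.0355, the highest without the PBS array numbered 1.

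The count of genes past the threshold, 0 in the fit reported, was 1 with the replicate block, 5 with a random block, 1 with the block and without both arrays numbered 1, 6 with the block among genes whose mean level reached 6, and 0 to 2 when arrays were left out (2 without the hepcidin array numbered 2). Members with an unadjusted p under 0.05 numbered 1 in the fit reported and 2 with the replicate block, a random block, array weights, the block without both arrays numbered 1 and the block with the level filter. Map3k8 was among them in each, and the other was Ticam1 with the block and without both arrays numbered 1, and Irak2 in the other 4 settings. They numbered 0 against a minimum fold of 1.2, and 1 to 2 when arrays were left out, with 2 without the PBS array numbered 1, the PBS array numbered 4 or both arrays numbered 4, where the member beside Map3k8 was Ticam1, Irak2 and Irak2. The replicate block brought no member or pathway gene past the threshold. Over all 24570 genes, an unadjusted p under 0.05 was found for 696 (2.83%) in the fit reported, 1203 (4.90%) with the block and 1214 (4.94%) with a random block. It was found for 790 with array weights, 1337 with the block and without both arrays numbered 1, and 28 against a fold of 1.2. Without the PBS array numbered 1, the PBS array numbered 4 or both arrays numbered 4, the counts were 738, 762 and 675. Fewer genes were tested under the level filters. Among genes whose mean level reached 6 (9569 besides Map3k8) it was 98, and 414 with the block. Among those at or above the median it was 184.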
